A study of Mus musculus with 24 samples.

Results

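Multipotent progenitors are the short-lived daughters of hematopoietic stem cells (HSCs). Described here are 8 genes listed as markers of these progenitors, a name not tested in these data: Cd34, Flt3, Cd48, Emb, St8sia4, Wfdc17, Satb1 and Mn1. They were listed by name, by a rule that uses no measured value, although earlier results of these data were known when the list was made, and are 8 of the 55487 gene IDs counted in the series. The series concerns PUS10, an enzyme that converts uridine to pseudouridine in RNA, in the aging of mouse HSCs. It holds 24 Smart-seq2 libraries, made by full-length cDNA amplification of sorted cells labelled as HSCs, in 3 experiments. In the first, cells overexpressing PUS10 (PUS10-OE, n = 3) were set against vector controls (Vector, n = 3). The second has 6 libraries with a knockdown of miR-139, a microRNA, labelled miR139-KD, and 6 controls labelled NTC. The third has 3 wild-type libraries (Pus10-WT) and 3 that carry the label Pus10-KO. The labels give the genotype of each group and no strain, age, promoter, vector, cell culture or transplantation step, and no sort gate.

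Stem cells and multipotent progenitors are told apart in mouse bone marrow mainly by proteins on the cell surface. Cells that keep long-term repopulating capacity generally lack CD34, CD48 and the receptor FLT3, which appear as cells turn into multipotent progenitors and then into lymphoid-primed ones. If any of these proteins was used in the sort, the level of its RNA would partly reflect the gate, and the labels do not say whether it was. In bulk libraries, fewer cells of a type and less RNA per cell cannot be told apart.

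Total counts assigned to genes ran from 34.2 to 47.3 M (mega) per library in the PUS10-OE experiment and from 9.87 to 18.2 M in the others. Values below are CPM, counts scaled to library size with the trimmed mean of M-values (TMM) within each experiment, given as mean ± SD over libraries, and differences are log2 fold changes with a standard error (SE). Adjusted p-values are from edgeR's quasi-likelihood test with Benjamini-Hochberg adjustment over all genes tested, 2-sided, and a gene is called at an adjusted p under 0.05. Whether replicates are separate animals is not in the labels, so a p-value here speaks of the spread among libraries, part of which may be technical.

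Pus10 itself checks the labels. It stood at 53.6, 92.8 and 81.5 CPM in the Vector libraries and at 285, 246 and 242 CPM in the PUS10-OE libraries, 3.39-fold higher on average and without overlap. In the knockout experiment Pus10 stood at 19.6, 31.8 and 33.8 CPM in Pus10-WT and at 35.6, 33.7 and 36.3 CPM in the libraries labelled Pus10-KO. Pus10 RNA was thus not lower in the libraries labelled Pus10-KO (log2 fold change 0.31, SE 0.279, adjusted p = 0.951), and the labels do not say which part of the gene was deleted. The knockdown has no such check, since priming on poly(A) tails does not capture mature miRNAs, and Pde2a, the host gene of miR-139, reached no more than 1.56 CPM in any library. All 18 genes of a list of long-term stem cell markers had counts in every group. This is a low bar and does not establish the cell type. Kit stood at 168 ± 13.7 CPM in Vector, 195 ± 20.7 in NTC and 436 ± 17.0 in Pus10-WT. In the same order, Fgd5 stood at 6.47 ± 2.70, 3.90 ± 5.53 and 59.4 ± 25.3 CPM, and Ctla2a at 112 ± 2.98, 88.1 ± 23.1 and 87.4 ± 18.9. Fgd5 and Hoxb5 were at 0 in at least 1 NTC library.

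The knockdown is meant to lower a microRNA, which is not checked in these data. A microRNA represses RNAs that carry a match to its seed in the 3' untranslated region, so the members were searched for such matches. The mature sequence of the 5-prime strand, from chromosome 7 (101475382 to 101475403, plus strand, GRCm38.p6, RefSeq), is shown with its seed, bases 2 to 8, in capitals. Below it are the 3 members' windows that hold the complementary 7 bases, ACTGTAG, in capitals, each read 5' to 3' in the direction of transcription from the gene's longest annotated 3' untranslated region (GENCODE M21, GRCm38, minus strand for all 3).
miR-139-5p: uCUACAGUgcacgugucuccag
Flt3 (chr5:147330741-147330758): aactttctACTGTAGaaa
Satb1 (chr17:51738394-51738416): gaaatattACTGTAGcagttaag
St8sia4 (chr1:95621997-95622019): aggaattcACTGTAGtcattcaa
Flt3, Satb1 and St8sia4 held 1 match each, 3 of the 8 members, and Cd34, Cd48, Emb, Wfdc17 and Mn1 held none. Among the 11084 genes tested in the knockdown comparison that have such a region, 13.3% held the match. The match of the 3-prime strand, CGTCTCC, was found in 0 of the 8 members and in 4.07% of those genes. The untranslated region of St8sia4 is 8952 bases long and that of Flt3 430, and a longer region has more chances of a match. In the knockdown, log2 fold changes were -1.80 for Flt3, -1.72 for Satb1 and -1.07 for St8sia4. Those of members without a match ran from -2.04 (Cd48) to -1.33 (Cd34). A link between the matches and these values was not tested.

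Promoters were read for 7 of the 8 members from RefSeq (GRCm38.p6), as the 250 bases before each annotated start; Mn1 had no entry. Windows were searched on both strands for short core motifs of 4 classes of blood transcription factor, and matches of different motifs may overlap. The RUNX core, TGTGGT, was found in 3 of the 11 windows of these genes (3 genes) and in 14.05% of all 32851 windows of this length. The ETS core, GAGGAA, was found in 5 of the 11 (3 genes) and in 23.3% of all windows. The E-box, CANNTG, was found in 7 of the 11 (6 genes) and in 66.2% of all windows. The GATA core, AGATAA, was found in 0 of the 11 and in 9.99% of all windows. Satb1 alone has 5 of the 11 windows, and some of these overlap. A GAGGAA match shared by its windows chr17:51812185-51812434 and chr17:51812055-51812304 is counted in both. The 3 genes with TGTGGT are shown, on the strand of the gene, with matches to TGTGGT and GAGGAA on either strand in capitals; a match is a description of letters, not a site.
Cd48 (chr1:171681742-171681991, plus strand): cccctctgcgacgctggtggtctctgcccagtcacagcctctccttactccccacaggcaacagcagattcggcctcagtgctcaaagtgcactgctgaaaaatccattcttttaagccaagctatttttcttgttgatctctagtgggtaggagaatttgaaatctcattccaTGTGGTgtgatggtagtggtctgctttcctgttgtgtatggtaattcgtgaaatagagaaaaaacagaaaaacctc
St8sia4 (chr1:95667595-95667844, minus strand): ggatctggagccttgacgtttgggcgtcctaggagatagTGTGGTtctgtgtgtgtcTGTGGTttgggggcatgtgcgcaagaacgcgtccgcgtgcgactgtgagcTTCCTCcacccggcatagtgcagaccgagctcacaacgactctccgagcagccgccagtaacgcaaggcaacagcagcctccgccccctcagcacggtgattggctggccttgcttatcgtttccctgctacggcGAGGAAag
Wfdc17 (chr11:83703806-83704055, plus strand): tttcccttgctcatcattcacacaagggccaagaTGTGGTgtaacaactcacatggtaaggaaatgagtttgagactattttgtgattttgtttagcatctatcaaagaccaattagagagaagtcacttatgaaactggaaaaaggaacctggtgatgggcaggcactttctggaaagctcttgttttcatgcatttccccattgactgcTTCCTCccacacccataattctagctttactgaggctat

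Knockdown of miR-139 was the comparison in which the members passed the test. Of the 8, 7 fell: the surface proteins Cd34, Flt3 and Cd48, the carrier-associated protein Emb, the enzyme St8sia4, the secreted protein Wfdc17 and the nuclear protein Satb1. In all 8 members, the highest miR139-KD library was below the lowest NTC library. Over all 13295 genes tested, 1.31% were called lower and 1.78% had groups that did not overlap in this direction. The median log2 fold change over the members was -1.67, against 0.02 over all genes tested.

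**Figure D1:**
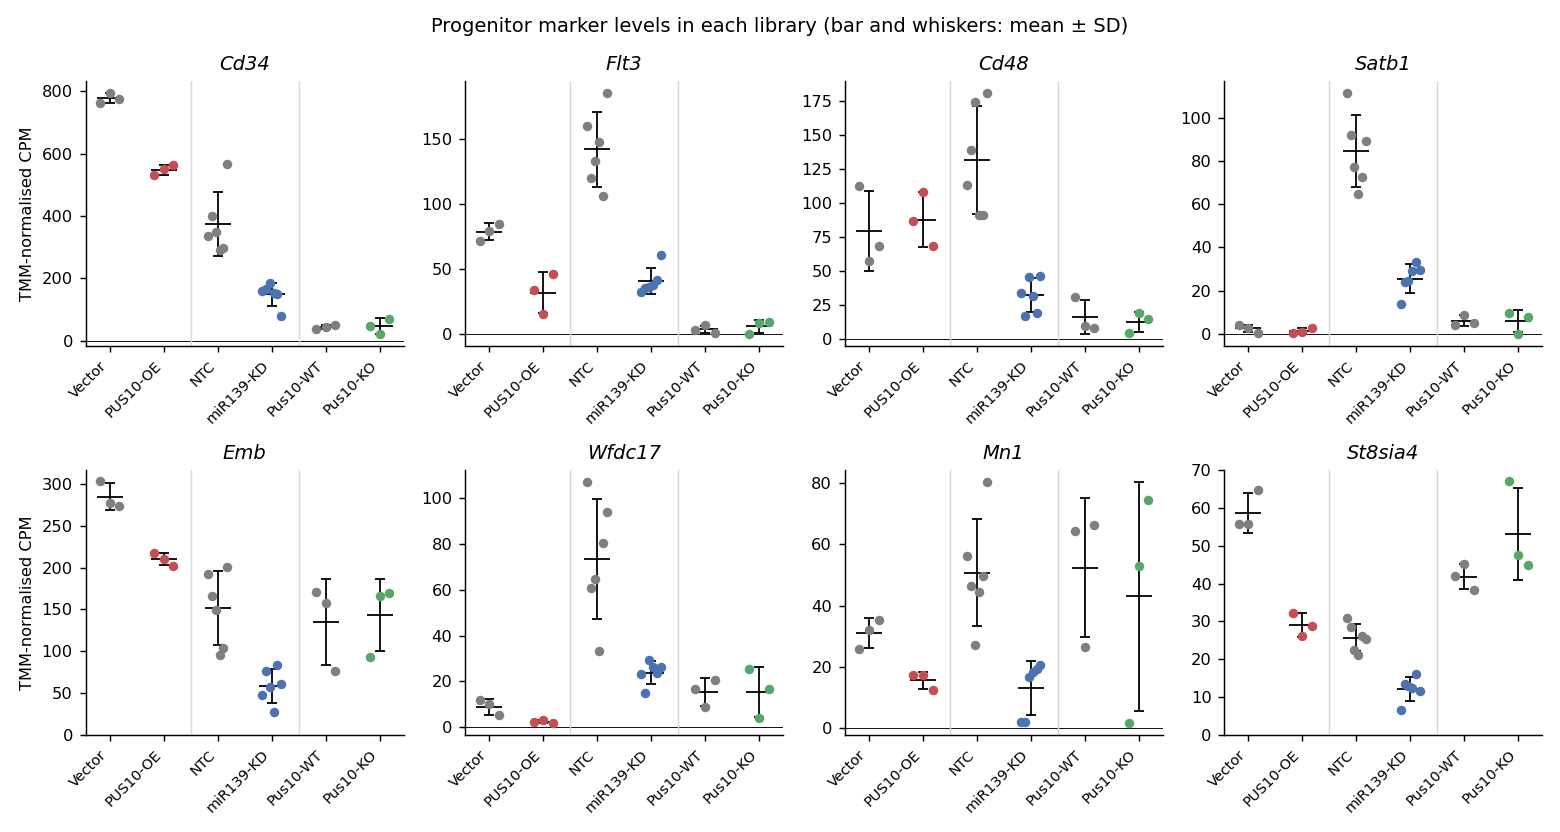
TMM-normalised CPM (vertical axis, linear, 1 panel per gene) of the 8 progenitor markers in each of the 24 libraries, as points in 6 groups; the horizontal bar and whiskers are the mean ± SD, grey points are controls and vertical lines part the 3 experiments, which were scaled separately. In the knockdown experiment every blue miR139-KD point lies below every grey NTC point in all 8 panels, whereas in the knockout experiment the groups overlap in all 8.

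Cd34 encodes a sialomucin of the surface of progenitors and endothelial cells (ENSMUSG00000016494.9, chromosome 1, 194938819 to 194961279, plus strand). Its level ran from 292 to 567.6 CPM in the 6 NTC libraries (median 343) and from 78.1 to 185 CPM in the 6 miR139-KD libraries (median 156). It fell to 39.9% of the NTC mean, a log2 fold change of -1.33 (SE 0.201, adjusted p = 0.00264). The lowest value, 78.1 CPM in miR139-KD replicate 6, stood apart from the other 5, which lay between 151 and 185. Gm16897, an antisense gene, shares 148 of the 7290 exonic bases of Cd34, and reads of the pair cannot be told apart without strand.

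Flt3 encodes the receptor tyrosine kinase for FLT3 ligand and drives lymphoid and dendritic cell output from progenitors (ENSMUSG00000042817.15, chromosome 5, 147330741 to 147400489, minus strand). It stood between 106 and 185 CPM in NTC (median 140) and between 32.7 and 60.6 CPM in miR139-KD (median 37.0). The log2 fold change was -1.80 (SE 0.179, adjusted p = 3.52e-04), which ranked Flt3 2 of all genes tested by p-value. Here miR139-KD replicate 6, the lowest library for Cd34, was the highest, at 60.6 CPM against at most 41.6 in the other 5.

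Cd48 encodes a SLAM family protein that binds CD244 and CD2, and its absence marks stem cells (ENSMUSG00000015355.13, chromosome 1, 171682009 to 171705258, plus strand). NTC libraries ran from 90.9 to 181 CPM (median 126) and miR139-KD libraries from 16.8 to 45.7 CPM (median 32.2). Its log2 fold change of -2.04 (SE 0.277, adjusted p = 0.00144) was the most negative of the 8, a 4.11-fold lower mean. Replicates 2 and 5 of miR139-KD, at 16.8 and 19.2 CPM, lay below the other 4, between 31.1 and 45.7 CPM.

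Emb encodes embigin, an immunoglobulin-domain protein that chaperones monocarboxylate transporters to the membrane (ENSMUSG00000021728.8, chromosome 13, 117208536 to 117274415, plus strand). Levels ran from 95.7 to 201 CPM in NTC (median 157) and from 27.4 to 83.3 CPM in miR139-KD (median 58.9). The log2 fold change was -1.36 (SE 0.255, adjusted p = 0.0112). The gap between the groups was narrow, 83.3 against 95.7 CPM, and 686 of the 6906 exonic bases (9.93%) are shared with Gm17509 on the opposite strand.

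St8sia4 encodes a polysialyltransferase, which adds chains of sialic acid to surface proteins (ENSMUSG00000040710.10, chromosome 1, 95587682 to 95667571, minus strand). It stood between 21.1 and 30.8 CPM in NTC (median 25.8) and between 6.69 and 16.1 CPM in miR139-KD (median 12.7). With a log2 fold change of -1.07 (SE 0.247, adjusted p = 0.0325) it was the member nearest to the threshold on the called side. The call was lost when any 1 of 9 of the 12 libraries was left out (adjusted p up to 0.0754). It was also lost with replicate number as a block (0.119) and with no filter of low genes (0.0777). St8sia4 was called in 9 of 21 settings.

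Wfdc17 encodes a small secreted protein of the whey acidic protein family (ENSMUSG00000069792.5, chromosome 11, 83703991 to 83706268, plus strand). NTC libraries ran from 33.2 to 107 CPM (median 72.6) and miR139-KD libraries from 14.9 to 29.2 CPM (median 24.9). Its log2 fold change was -1.62 (SE 0.258, adjusted p = 0.00352). The lowest NTC library, replicate 4 at 33.2 CPM, lay close to the highest miR139-KD library, and the next NTC library stood at 61.0 CPM.

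Satb1 encodes a chromatin organiser that promotes lymphoid programmes in progenitors (ENSMUSG00000023927.15, chromosome 17, 51736187 to 51833290, minus strand). It ran from 64.6 to 112 CPM in NTC (median 83.2) and from 13.7 to 33.2 CPM in miR139-KD (median 26.6). The log2 fold change was -1.72 (SE 0.212, adjusted p = 7.37e-04), and the call was lost where all 6 groups shared 1 estimate of the spread (adjusted p = 0.104). The groups did not overlap, with 64.6 CPM the lowest NTC value and 33.2 the highest miR139-KD value.

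Mn1, a transcriptional cofactor known for its part in myeloid leukemia, did not pass (ENSMUSG00000070576.4, chromosome 5, 111417362 to 111457033, plus strand). NTC libraries ran from 27.3 to 80.3 CPM (median 48.0), and miR139-KD libraries split: replicates 1 and 2 were at 2.1 and 1.86 CPM and the other 4 between 16.8 and 20.7. The log2 fold change was -1.94 (SE 0.531, adjusted p = 0.0679), so the second most negative value of the 8 had the widest error. The groups did not overlap, and DESeq2 called all 8 members lower, Mn1 with an adjusted p of 0.00519, against 3.37% of genes called lower by that tool.

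Single libraries were read together through the median, over the 8 members, of the log2 ratio to the NTC mean. The 6 miR139-KD libraries stood between -1.92 and -1.35 and the NTC libraries between -0.37 and 0.40. Among the NTC libraries, replicate 6 was highest for 5 members and replicate 1 for the other 3, while replicate 4 was lowest for 6 members. No miR139-KD library was lowest for more than 3 members.

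Markers of other blood cells also differed between the groups of this experiment, and these values stand beside the members' result. The summed level of 9 B cell markers was 1131 to 2461 CPM across NTC libraries but 34.04 to 619 CPM across miR139-KD libraries, without overlap. None of the 9 was at 0 in every library of a group, but Ms4a1 was at 0 in some libraries of both groups, and Pax5, Ebf1 and Igll1 in at least 1 of miR139-KD. Of these, 4 fell: Blnk (-2.86, SE 0.436), Cd79a (-2.82, SE 0.526), Pax5 (-2.85, SE 0.622) and Cd79b (-1.04, SE 0.261), at adjusted p-values from 0.00269 to 0.0479. Of 8 T and NK cell markers, Lck fell (-3.12, SE 0.455, adjusted p = 0.00226), and Cd3e, Cd3g and Cd8a were at 0 in all 12 libraries. The sum of 7 megakaryocyte markers was higher in the knockdown, 1154 to 2847 CPM against 89.8 to 319, and 4 of them rose: Itga2b (1.93, SE 0.250), Pf4 (4.31, SE 0.555), Gp9 (2.19, SE 0.313) and Vwf (3.06, SE 0.608).

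**Figure D2:**
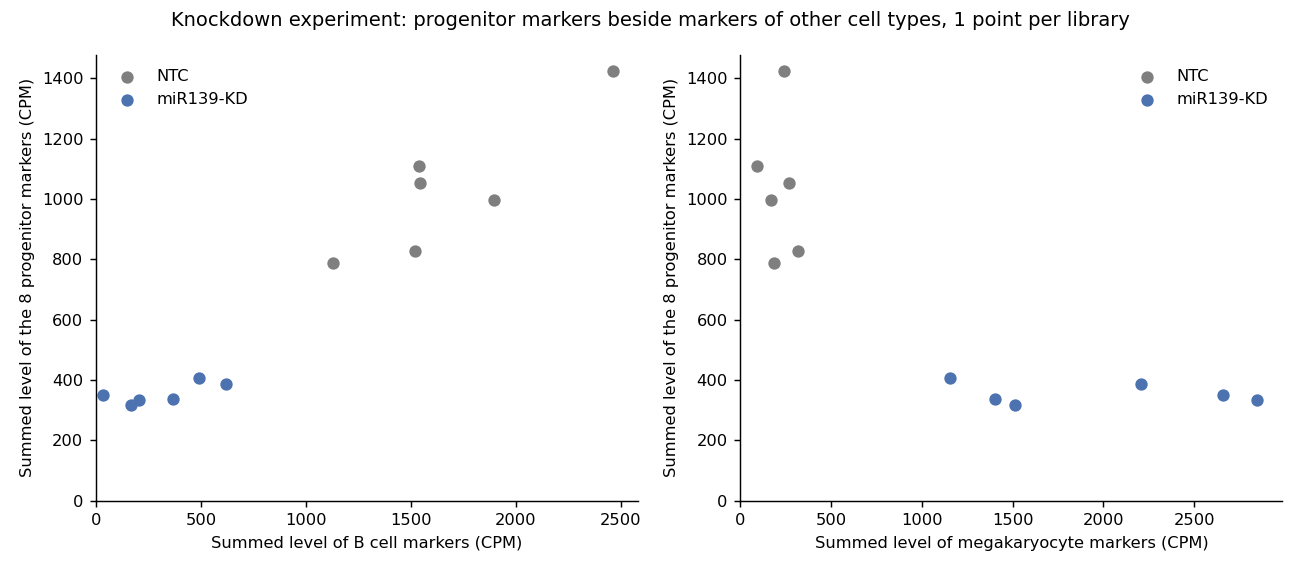
Summed CPM of the 8 progenitor markers (vertical axes) against summed CPM of 9 B cell markers (left, horizontal axis) or 7 megakaryocyte markers (right) in the 12 libraries of the knockdown experiment, 1 point per library. The 6 blue miR139-KD libraries had a progenitor sum of 318 to 407 CPM, a B cell sum of 34.04 to 619 CPM and a megakaryocyte sum of 1154 to 2847 CPM. Members with high CPM, such as Cd34 (149 ± 36.9 in miR139-KD), weigh most in the progenitor sum, and a link between the sums was not tested.

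Within miR139-KD, the library with the lowest B cell sum (replicate 2, 34.04 CPM) and that with the highest (replicate 5, 619 CPM) had summed member levels of 350 and 387 CPM. Within NTC, the library with the lowest B cell sum (replicate 4, 1131 CPM) also had the lowest member sum, 789 CPM, and that with the highest (replicate 6, 2461 CPM) the highest, 1423 CPM. Neutrophil and monocyte markers summed to 973 to 15065 CPM over NTC and 1242 to 13935 over miR139-KD libraries, with 0 of 12 called, and erythroid markers to 217 to 5318 and 401 to 5352 CPM, with 0 of 7 called. Without 4 libraries that held over 100 CPM of the immunoglobulin gene Igkc (NTC replicate 5 and miR139-KD replicates 2, 5 and 6), an alternative and a limit chosen after seeing the data, 5 of 8 members were called lower and the members' median was -1.90. St8sia4 (adjusted p = 0.147) and Wfdc17 (0.114) lost their calls there, and Mn1 again missed (0.205). The share of all genes called in that fit is not given here. The part of other cell types in the members' result was not tested.

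PUS10 overexpression gave lower levels of 6 members in every treated library, but no member passed edgeR's test. Cd34, Flt3, Emb, St8sia4, Wfdc17 and Mn1 stood lower in all 3 PUS10-OE libraries than in any Vector library. Satb1 was low and varied widely between libraries, and Cd48 differed by less than its spread. Groups that did not overlap in this direction were found in 6.75% of the 14834 genes tested, and edgeR called 0% of genes lower. Pus10 itself, the overexpressed gene, had an adjusted p of 0.278. The median log2 fold change of the members was -0.998, against 0.0059 over all genes tested, with 7 of 8 negative.

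Cd34 stood at 763, 795 and 777 CPM in the Vector libraries and at 532, 550 and 565 CPM in the PUS10-OE libraries. Both groups were tight (SD 15.8 and 16.4 CPM), and the mean was 70.5% of the Vector mean, a log2 fold change of -0.50 (SE 0.0718, adjusted p = 0.278). By p-value Cd34 ranked 5 and St8sia4 6 of all genes tested.

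Flt3 stood at 71.7, 79.0 and 84.8 CPM in Vector and at 33.9, 15.4 and 46.3 CPM in PUS10-OE. The treated libraries differed 3.00-fold among themselves, and the log2 fold change of -1.30 had an SE of 0.345 (adjusted p = 0.393). Cd48 did not share the pattern: 112, 57.0 and 68.4 CPM in Vector against 86.5, 108 and 68.1 in PUS10-OE overlapped fully (log2 fold change 0.15, SE 0.269, adjusted p = 0.967).

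Emb stood at 303, 278 and 274 CPM in Vector and at 217, 211 and 202 CPM in PUS10-OE (log2 fold change -0.44, SE 0.0854, adjusted p = 0.337). St8sia4 stood at 55.6, 55.7 and 64.6 CPM in Vector and at 32.3, 26.2 and 28.7 CPM in PUS10-OE (-1.01, SE 0.145, adjusted p = 0.278). In both genes the gap between groups exceeded the range within either, for St8sia4 from 32.3 to 55.6 CPM. St8sia4 RNA in PUS10-OE was at 49.6% of its Vector mean.

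Wfdc17 was a low gene here, at 11.8, 9.98 and 5.11 CPM in Vector and 2.23, 3.09 and 2.00 CPM in PUS10-OE. Its log2 fold change of -1.88 (SE 0.397, adjusted p = 0.337) was the most negative of the members in this experiment, from counts of 82 to 480 per library. Mn1 stood at 25.9, 31.9 and 35.4 CPM in Vector and at 17.3, 17.3 and 12.5 CPM in PUS10-OE (-0.99, SE 0.211, adjusted p = 0.337). Satb1 was low and uneven, at 4.07, 2.91 and 0.55 CPM in Vector and 0.22, 0.64 and 2.88 in PUS10-OE, so its -1.01 carried an SE of 1.05 (adjusted p = 0.909).

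The tools disagreed on this comparison. An unadjusted p under 0.05 was reached by 6 of 8 members and by 1215 of 14834 genes, and edgeR called 0 genes. DESeq2 called 6 members lower (Cd34, Flt3, Emb, St8sia4, Wfdc17 and Mn1, adjusted p from 7.08e-09 to 0.00793), with 0.759% of genes called lower, and limma-voom called 0 members. With genes under 10 CPM left out, edgeR called St8sia4 (adjusted p = 0.0316) and Cd34 (0.0498). Pus10 passed under that filter as well (0.00108), and the share of all genes called there is not given here. B cell markers summed to 54.02 to 76.0 CPM in Vector and 35.03 to 57.2 in PUS10-OE, with Cd79a, Ebf1, Igll1, Ms4a1 and Pax5 at 0 in all 6 libraries. Megakaryocyte markers summed to 161 to 196 CPM in Vector and 271 to 478 in PUS10-OE, with 0 of 6 called, and their part in the members' values was not tested.

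The libraries labelled Pus10-KO, in which Pus10 RNA was not lower, showed no called difference in any member. Levels overlapped between the groups in all 8, with 4 log2 fold changes negative and 4 positive and a median of 0.04, against -0.0034 over all genes. Adjusted p-values ran from 0.905 to 0.999, and 0 members reached an unadjusted p under 0.05; DESeq2 called 0 as well. Of 14657 genes tested, 0.0614% were called in either direction, and 6.79% had groups that did not overlap on the lower side. These spreads were wide, and a missed threshold does not show that levels were alike.

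Cd34 stood at 36.2, 44.4 and 51.3 CPM in Pus10-WT and at 48.5, 21.2 and 71.3 CPM in the libraries labelled Pus10-KO (log2 fold change 0.10, SE 0.414). Flt3 was low, at 3.05, 6.81 and 1.13 CPM against 0, 8.64 and 9.21 CPM, where the 0 allows up to 0.247 CPM (3 counts). Cd48 stood at 30.6, 9.21 and 8.06 CPM against 4.36, 18.6 and 14.3 CPM (-0.36, SE 0.704). For all 3 surface proteins, the libraries labelled Pus10-KO included values both above and below the Pus10-WT median.

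Emb stood at 170, 158 and 75.8 CPM in Pus10-WT and at 93.4, 166 and 169 CPM in the libraries labelled Pus10-KO (log2 fold change 0.08, SE 0.342). St8sia4 had the smallest SE of the members, at 42.1, 45.1 and 38.3 CPM against 67.0, 47.5 and 44.8 CPM (0.34, SE 0.230, adjusted p = 0.905). Wfdc17 stood at 16.9, 8.83 and 20.7 CPM against 25.6, 4.05 and 16.5 CPM (-0.01, SE 0.657). Replicate 1 of the libraries labelled Pus10-KO was the highest of its group for St8sia4 and Wfdc17 and the lowest for Emb.

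Satb1 stood at 4.11, 8.89 and 5.09 CPM in Pus10-WT and at 9.79, 0 and 7.75 CPM in the libraries labelled Pus10-KO, where the 0 allows up to 0.202 CPM. Mn1 stood at 64.3, 26.4 and 66.4 CPM against 1.73, 53.0 and 74.3 CPM (log2 fold change -0.28, SE 0.975), a 43.0-fold range within the latter group. In this group, as in miR139-KD, Mn1 thus fell into libraries with few counts and libraries with many. Plasma cell markers summed to 1538 to 4527 CPM in Pus10-WT and 229 to 358 CPM in the libraries labelled Pus10-KO, and Jchain and the B cell marker Cd79a fell (edgeR adjusted p = 0.0238 for each). Neutrophil and monocyte markers summed to 560 to 841 CPM and 615 to 3121 CPM, in the same order. The part of these cells in the members' values was not tested.

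**Figure D3:**
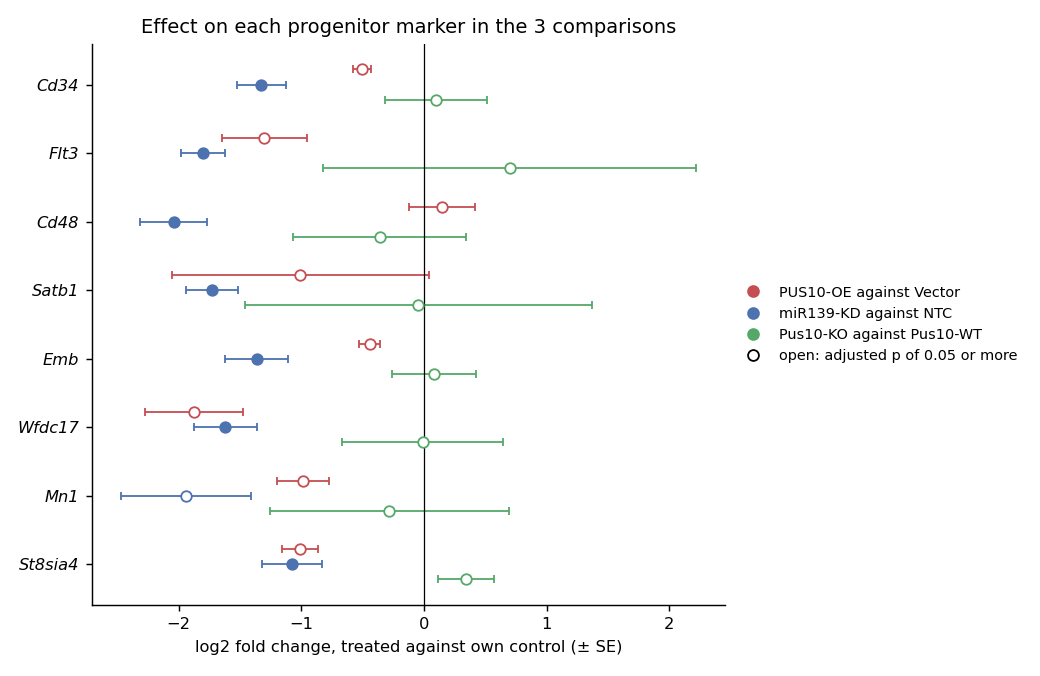
Log2 fold change ± SE (horizontal axis) of each of the 8 progenitor markers in the 3 comparisons, each treated group against its own control; filled points have an edgeR adjusted p under 0.05. The 7 filled points are all in the miR139-KD comparison, from -2.04 for Cd48 to -1.07 for St8sia4; the Pus10-KO values lie on both sides of 0.

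Whether the effects differed between experiments was tested gene by gene as the difference of the log2 fold changes, in 1 fit over all 24 libraries and 17664 genes. Against PUS10 overexpression, edgeR called the difference for 0 members (background 0.051% of genes called). The widest gap was that of Cd48, -2.22 (SE 0.602), with an adjusted p of 0.228, the lowest of the 8, and DESeq2 called it (adjusted p = 0.0257). For St8sia4 the estimated difference was -0.09 (SE 0.310), the smallest of the 8.

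Against the libraries labelled Pus10-KO, in which Pus10 RNA was not lower, only St8sia4 passed, with a difference of -1.44 (SE 0.314, adjusted p = 0.0454; background 0.294%). The call was lost in 15 of 18 fits that left out 1 library (adjusted p up to 0.166), and with RLE scaling (0.0515), no filter (0.107) or a 10 CPM filter (0.0501). Differences for Cd34 (-1.45, SE 0.378, adjusted p = 0.125) and Emb (-1.47, SE 0.414, adjusted p = 0.183) did not pass; DESeq2 called both (adjusted p = 0.0181 and 0.0400). Between PUS10 overexpression and the libraries labelled Pus10-KO no member passed (background 0.0226%). The lowest adjusted p was 0.464 for St8sia4 at -1.36 (SE 0.360), which DESeq2 called (adjusted p = 0.00812). All backgrounds given for the differences of effects are edgeR's, and DESeq2's share of all genes called is not given here.

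The 3 control groups themselves had different levels of the members, although all are labelled as HSCs. Experiments were scaled separately, and experiment and control type cannot be told apart, so these values are a description. Cd34 was highest in Vector (778 ± 15.8 CPM), lower in NTC (374 ± 103) and lowest in Pus10-WT (44.0 ± 7.54), with no overlap between these controls. Flt3 was highest in NTC (142 ± 28.6), then Vector (78.5 ± 6.54) and Pus10-WT (3.66 ± 2.89), again without overlap. Satb1 stood at 84.5 ± 16.7 CPM in NTC, 6.03 ± 2.53 in Pus10-WT and 2.51 ± 1.79 in Vector.

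Ordered over all 6 groups, the members gave several sequences of levels. For Cd34 the order was Vector, PUS10-OE, NTC, miR139-KD, the libraries labelled Pus10-KO and Pus10-WT, and the neighbours PUS10-OE and NTC overlapped, as did the last 2. In Flt3 the order was NTC, Vector, miR139-KD, PUS10-OE, Pus10-KO and Pus10-WT, with overlap between miR139-KD and PUS10-OE and between the last 2. Cd48 ran NTC, PUS10-OE, Vector, miR139-KD, Pus10-WT and Pus10-KO, and only Vector and miR139-KD did not overlap as neighbours. Emb ran Vector, PUS10-OE, NTC, Pus10-KO, Pus10-WT and miR139-KD, with overlap from NTC onwards.

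St8sia4 ran Vector, Pus10-KO, Pus10-WT, PUS10-OE, NTC and miR139-KD, where Vector overlapped Pus10-KO, Pus10-KO overlapped Pus10-WT and PUS10-OE overlapped NTC. In Wfdc17 the order was NTC, miR139-KD, Pus10-WT, Pus10-KO, Vector and PUS10-OE, with NTC and PUS10-OE the groups that stood clear of their neighbours. Satb1 ran NTC, miR139-KD, Pus10-WT, Pus10-KO, Vector and PUS10-OE, and the last 4 overlapped as neighbours. Mn1 alone was highest in Pus10-WT (52.4 ± 22.5 CPM), followed by NTC (50.7 ± 17.4), Pus10-KO, Vector, PUS10-OE and miR139-KD, with a clear gap only between Vector and PUS10-OE. In 5 of the 8 genes, Cd34, Flt3, Cd48, Satb1 and Wfdc17, the miR139-KD mean lay above both groups of the knockout experiment.

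Levels of different genes can be compared per kilobase of exon (CPM per kb). In Vector, Cd34 led with 107 ± 2.17 CPM per kb, followed by Cd48 at 66.6 ± 24.5 and Emb at 41.2 ± 2.32, and Satb1 was last at 0.13 ± 0.09. In NTC, Wfdc17, the shortest at 533 exonic bases, led with 138 ± 49.4, followed by Cd48 at 111 ± 33.4 and Cd34 at 51.3 ± 14.1, with overlap of Wfdc17 and Cd48. In Pus10-WT Wfdc17 again led at 29.0 ± 11.4, and Cd34 ranked 5 at 6.03 ± 1.03. St8sia4 never exceeded a mean of 2.92 CPM per kb in any group.

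The members did not all vary together within groups. After each gene was centred on its group mean, the 28 pairs of members had correlations from -0.54 to 0.66 over the 24 libraries, with a median of 0.02 and 15 above 0. The highest were Mn1 with Flt3 (0.66) and Wfdc17 with Satb1 (0.64), and the lowest was Wfdc17 with Flt3 (-0.54). Mn1, Flt3, Cd48 and Emb correlated positively with each other (0.18 to 0.66), as did Cd34, Satb1 and Wfdc17 (0.47 to 0.64). These sets were picked after seeing the values. These points share library preparation and depth, and are given as a description.

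Measured the same way, the genes whose deviations were most like the mean of the members, among 12308 genes tested in all 3 comparisons, were Dpp4 (r = 0.80), Lman2l (0.74), Anxa3, Noct, Sik2, Bfsp2, Gm6286, Rps6kb2, Tbc1d10c and Tmem70 (0.69). For single members they were Mvd, Dis3l2 and Igfbp4 for Cd34 (0.83 to 0.76), Tyrobp, Lat2 and Aars2 for Flt3 (0.86 in each), and Rps19-ps3, Cd68 and Mpc2 for Cd48 (0.82 to 0.70). No gene appeared in more than 1 of these 4 lists.

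Partners and paralogues of the members were read from a list that takes in ligands and counter-receptors (Flt3l, Cd244a, Cd2), the transporters and chaperones around embigin (Slc16a1, Slc16a3, Slc16a7, Bsg, Nptn), family members (Podxl, Podxl2, St8sia1, St8sia2, St8sia3, St8sia6, Wfdc18, Wfdc21, Kit, Csf1r, Pdgfrb), acceptors of polysialic acid (Ncam1, Nrp2) and cofactors of Mn1 (Meis1, Hoxa9). In the knockdown none of the genes named here was called, and Hoxa9 came nearest, from 61.3 ± 9.81 to 38.3 ± 8.11 CPM (log2 fold change -0.68, SE 0.175, adjusted p = 0.0544). In PUS10-OE 0 of 18 passed, with Podxl (1.26, SE 0.221) and Cd244a (-0.73, SE 0.254) having the lowest p. In the knockout experiment 0 of 20 passed. There Slc16a7 had a log2 fold change of 2.04 (SE 0.646, adjusted p = 0.559), and St8sia6 had 208 counts over Pus10-WT and 0 over the libraries labelled Pus10-KO, at least 68.4-fold lower (3 counts over the group as floor, adjusted p = 0.429). Nrp2, St8sia1 and St8sia3 were too low to be tested in any comparison.

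Other genes of progenitors and early lymphoid or myeloid cells were read from a list of 24, none of them a member. In the knockdown 7 of 24 fell and 0 rose, with a median of -1.14 and 22 negative. Among the 7 were the leukocyte tetraspanin Cd53 (-1.42, SE 0.225), Dntt, the DNA polymerase of lymphoid gene rearrangement (-2.66, SE 0.539), Plac8 (-0.94, SE 0.202), Csf3r, Cd27 and Irf8, the last 3 named after their values were seen. With replicate number as a block 3 were called, and without miR139-KD replicate 1 or without the 4 libraries rich in Igkc 2 were. In PUS10-OE 0 of 21 were called, with a median of -0.59 and 19 negative. The lowest p belonged to Dntt, with 312 counts in Vector and 0 in PUS10-OE, at least 106-fold lower (adjusted p = 0.337), and Cdk6, 0.31 (SE 0.0771). In the knockout experiment 0 of 21 were called, with a median of 0.16; Plac8 (3.94, SE 0.906) and Itgb7 (-0.75, SE 0.383) had the lowest p.

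Of 18 long-term stem cell markers, 4 rose in the knockdown and 0 fell: Gata2 (1.23, SE 0.180), Ctnnal1 (1.99, SE 0.420), Pdzk1ip1 (0.90, SE 0.205) and the SLAM receptor Slamf1 (1.36, SE 0.313), with adjusted p-values from 0.00226 to 0.0325. All 18 log2 fold changes were positive, with a median of 0.83, and 1.41% of all genes were called higher. In PUS10-OE and in the knockout experiment 0 of 18 were called, with medians of 0.09 and 0.11. The lowest p belonged to Slamf1 (0.98, SE 0.232, adjusted p = 0.358) and Kit (-0.37, SE 0.132) in PUS10-OE, and to Cdkn1c (1.82, SE 0.497, adjusted p = 0.507) and Pdzk1ip1 (0.33, SE 0.143) in the libraries labelled Pus10-KO.

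**Figure D4:**
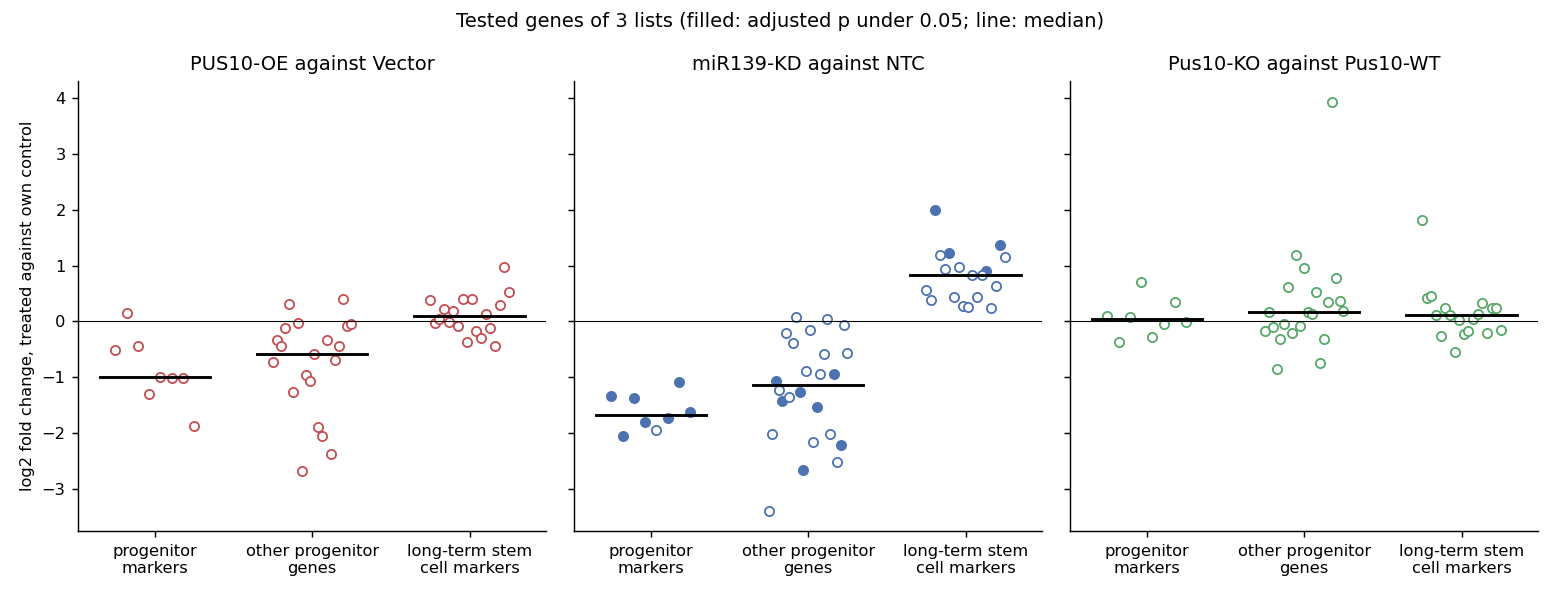
Log2 fold change (vertical axis) of each tested gene of 3 lists, progenitor markers, other progenitor genes and long-term stem cell markers, in the 3 comparisons (panels); filled points have an edgeR adjusted p under 0.05 and the line is the list's median. Dntt is not drawn in the PUS10-OE panel because it had 0 counts in that group; in the miR139-KD panel the medians are -1.67, -1.14 and 0.83, and in the Pus10-KO panel they are within 0.16 of 0.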

How the data were processed

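The authors deposited whole-number counts of reads per gene, not normalized, for each of 24 libraries of mouse cells labelled as HSCs. The submitters' processing notes name HISAT2 2.1.0, HTSeq 0.11.2, DESeq2 and the build mm10; for the annotation release, the text used here gives none. The 5 summary entries per library were kept out of all fits; 3.70% to 12.0% of reads had no gene and 6.53% to 20.1% were ambiguous. Symbols came from GENCODE M21 for 55394 of 55487 gene IDs. Smart-seq2 does not mark strand, so reads of overlapping genes cannot be told apart. Reads carry no molecular identifiers, so floors cover counting error only. Within groups, all 42 pairs of libraries differed beyond sampling noise (chi-square divided by its degrees of freedom at least 31.9).

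For each comparison, the 2 groups alone entered edgeR 4.0.16 under R 4.3.3 (filterByExpr, TMM, robust quasi-likelihood F test); differences of effects used all 24 libraries. The fits were checked on simulated counts. Alternatives were DESeq2 1.42.0, limma-voom (limma 3.58.1), other scaling and filters, replicate number as a block, the 6 groups together, and leaving out single libraries; the alternative on Igkc was added after seeing the data.

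The genes and lists were chosen with earlier results of these data known, as were the motifs searched and the promoters shown. Named genes were Pus10 and Pde2a, all 8 members, up to 4 called genes of each list by p-value (or the 2 with the lowest p where none was called), the partners, and the genes most correlated with the members after centring on group means (log2 CPM, prior count 2). Csf3r, Cd27, Irf8, Fgd5, Hoxb5, Ctla2a and Igkc fall outside this rule, as do genes named for 0 counts or shared exonic bases. Some genes of the lists are not reported here. Per-library medians used a pseudocount of 0.5 CPM. Plots used matplotlib 3.10.9 (Python 3.11.15).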

Additional observations from a re-analysis of the deposited data

Results flagged for a closer look

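In miR139-KD, the lowest Cd34 library (replicate 6, 78.1 CPM) and the highest Flt3 library (the same replicate, 60.6 CPM) stood apart from the other 5 libraries of their group by a gap of 0.678 and 0.679 of the whole range. This was tested in 16 sets of 6 libraries, 8 genes in NTC and miR139-KD, and chance alone separates about 1 in 20 sets. The same library had the highest summed level of mast cell and basophil markers of its group, 1952 CPM against a group median of 18.9, and held 2666 CPM of Igkc; their part in the 2 values was not tested. Without this library the Cd34 and Flt3 calls held.

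The effect on St8sia4 was called different between miR-139 knockdown and the libraries labelled Pus10-KO, in which Pus10 RNA was not lower, by -1.44 on the log2 scale (edgeR adjusted p = 0.0454). The call was lost in 15 of 18 fits that left out 1 library (adjusted p up to 0.166), with RLE scaling (0.0515), with no filter (0.107) and with a 10 CPM filter (0.0501).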

How the results depend on the processing

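For the PUS10-OE comparison, members called lower numbered 2 with a 10 CPM filter (median log2 fold change -0.76) and 6 with DESeq2, which called 2 other progenitor genes lower and 1 higher. Leaving out single libraries moved the median between -0.94 and -0.78. For the knockdown, other progenitor genes called lower numbered 3 with replicate number as a block, 2 without the 4 libraries rich in Igkc, and 2 to 7 with 1 library left out; members called lower numbered 6 or 7 there. In the knockout comparison, other progenitor genes called higher numbered 2 with DESeq2, 1 with all 6 groups in 1 fit and 0 to 1 with 1 library left out; the members' median was -0.27 with limma-voom and -0.18 to 0.38 with 1 library left out. Members whose effect differed numbered 1 with DESeq2 for knockdown against PUS10-OE and 1 for PUS10-OE against Pus10-KO. For knockdown against Pus10-KO they numbered 3 with DESeq2, and 0 with RLE scaling, with no filter and with a 10 CPM filter. With 1 library left out they numbered 0 to 1. Without Pus10-KO replicate 1 the called member was Flt3 (edgeR adjusted p = 0.0124), and without Pus10-KO replicate 2 it was Cd34 (0.0193), not St8sia4. The cause was not tested. For these alternatives, the share of all genes called is given above only for DESeq2 in the knockdown and PUS10-OE comparisons.

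Directions turned for uncalled values only. In the knockout comparison, Cd34 was -0.0436 with the block and -0.0074 with limma-voom, Flt3 -0.10 and -0.58, and Wfdc17 0.000119 with DESeq2 and 0.0073 with all groups in 1 fit. With 1 library left out, the ranges there were -0.33 to 0.45 for Cd34, -0.77 to 0.52 for Cd48, -0.63 to 0.54 for Satb1, -0.20 to 0.32 for Emb, -0.59 to 0.44 for Wfdc17 and -0.93 to 0.28 for Mn1. In PUS10-OE, Cd48 ran from -0.0437 to 0.48. For the differences of effects, the ranges were -1.23 to 0.76 for Satb1, -0.0125 to 0.50 for Wfdc17 and -0.19 to 0.0382 for St8sia4 between knockdown and PUS10-OE, and -0.38 to 0.92 for Cd48 between PUS10-OE and Pus10-KO.

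Replicate numbers did not pair the libraries: same-numbered deviations correlated between -0.02 and 0.02, and no library correlated best with its own number. With replicate number as a block, 6 members were called lower in the knockdown and 0 in the other comparisons. Counts of Flt3 and Satb1 in the knockout experiment and of Satb1 in the PUS10-OE experiment were low, from 0 to 170 per library. Their values varied widely between libraries of a group.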
